A study of Mus musculus with 36 samples.

Results

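Collagens are the proteins of the extracellular matrix that fold into a triple helix of 3 chains, and each chain has a gene of its own. The collagen genes described here were the protein-coding rows of the count table whose symbol is Col, a number, the letter a and a number, with a mean count above 1. This rule took 44 genes of the 55487 gene rows. The cultures were dissociated cortical cells of embryonic day 18 mice, given in the labels as cell line C57EDCX, which had been kept for 10 days before treatment. The 3 groups were control cultures with no drug, cultures given 1 µM dexamethasone (DEX), an agonist of the glucocorticoid receptor, for 72 h, and cultures given 1 µM DEX with 1 µM RU-486, which blocks that receptor, with the medium replenished at 48 h. Each group had 12 RNAseq libraries, 6 in each of the 2 batches that the labels give, and the libraries are named here by their group and a number from 1 to 36. Dissociated cortex holds neurons, glia and any vessels and meninges left on the tissue, and RNA was taken from all cells of a culture. The labels do not say which libraries came from separate dissections, so a p-value measures the spread between these libraries.

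In the brain, collagen is sparse inside the tissue and concentrated in the basement membranes around vessels and under the meninges. Type IV collagen, mainly 2 chains of α1 and 1 of α2, forms the network of these membranes. Fibrillar collagens of types I and III are the main products of fibroblasts, while the minor fibrillar chains of types V and XI start fibrils and set their diameter. The FACIT collagens attach to the surface of fibrils. The multiplexins sit at the edge of basement membranes, and the transmembrane collagens are anchored in the membrane of the cell that makes them, neurons included.

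The libraries held 12.1 to 82.4 M counts, and levels are given in CPM, the counts of a gene scaled by the total and the composition of its library. RIN, the RNA integrity number of the labels, went with the group in batch 1. Control libraries had a RIN of 7.8 to 9.2 and 24.2 to 82.4 M counts, DEX libraries 3.9 to 7.8 and 12.1 to 22.3 M, and DEX + RU-486 libraries 5.6 to 7.9 and 17.4 to 26.7 M. In batch 1 the treatment, the depth and the RIN therefore cannot be told apart in full. In batch 2 each group had 2 libraries with a RIN below 3 (control 19 and 20, DEX 25 and 26, DEX + RU-486 31 and 32), and the 4 others of each group lay between 7.4 and 8.7. The batch 2 comparisons are given for these 12 intact libraries as well as for all 18. Xist, the RNA of the inactive X chromosome, lay between 471 and 983 CPM in 10 libraries of batch 1, between 16.7 and 55.8 CPM in the other 8, and at or below 3.51 CPM in batch 2. The 10 libraries comprised 4 of control, 3 of DEX and 3 of DEX + RU-486, and their summed Y-linked genes were at or below 0.241 CPM, against at least 40.5 CPM in every other library.

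Type IV collagen led the family. Per kb of exon, the mean level over the 36 libraries was 4.97 CPM for Col4a1 (α1(IV)) and 4.72 CPM for Col4a2 (α2(IV)). The next were Col23a1, a transmembrane collagen, at 1.9 CPM per kb and Col11a2, a type XI chain, at 1.51 CPM per kb. Their order differed between the batches, with 2.81 CPM per kb for Col23a1 and 1.4 for Col11a2 in batch 1, and 0.991 and 1.62 in batch 2. Over the 36 libraries all others lay at or below the 0.621 CPM per kb of Col26a1, a small collagen outside the other classes, and Col4a6 was the lowest at 0.019 CPM per kb. In batch 2 alone Col3a1 was the lowest, at 0.021 CPM per kb. The chains typical of fibroblasts were low over the 36 libraries, with 0.106 CPM per kb for Col1a1, 0.0669 for Col3a1 and 0.0319 for Col1a2. Col4a1 and Col4a2 together took between 32.1% and 61.7% of the collagen counts of a library (median 45%). The summed level of all 44 genes lay between 79.7 and 248 CPM (median 139). Of the 44, 23 had a mean of at least 1 CPM, 21 were below that, and 19 were at 0 counts in at least 1 library, where 3 counts stand for 0.0288 to 0.31 CPM depending on depth.

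**Figure D1:**
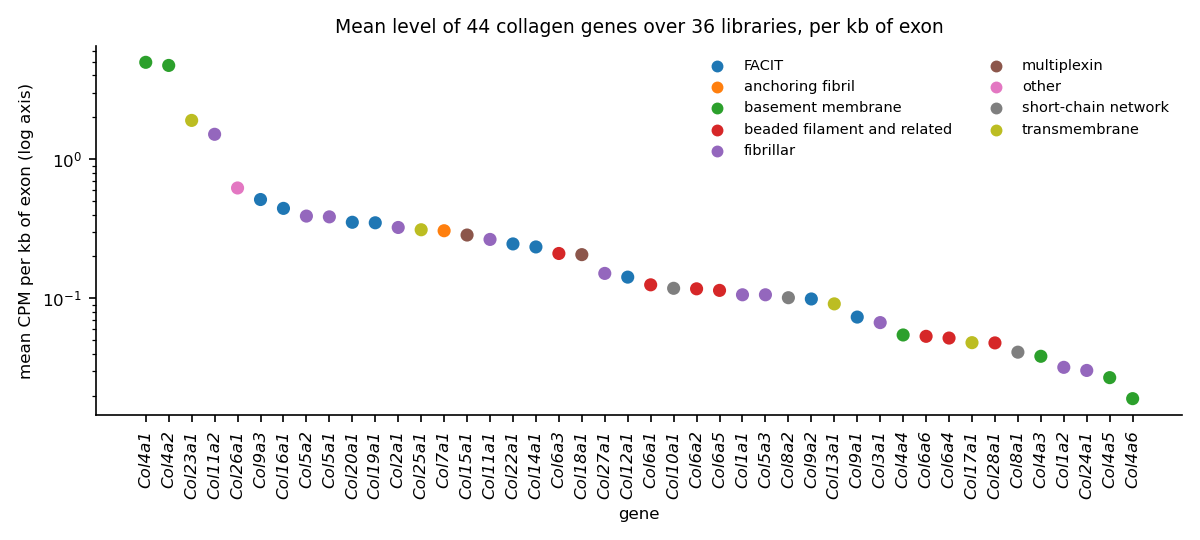
Mean level of each collagen gene per kb of exon over the 36 libraries, in CPM per kb on a log axis, with the genes coloured by class. Col4a1 at 4.97 and Col4a2 at 4.72 CPM per kb stand above Col23a1 at 1.9 and Col11a2 at 1.51, and the range ends with Col4a6 at 0.019.

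Col4a1 (ENSMUSG00000031502, chr8:11198423-11312826, minus strand) and Col4a2 (ENSMUSG00000031503, chr8:11312805-11449287, plus strand) lie head to head on GRCm38, and their annotated first exons overlap by 22 bases. The other type IV genes form pairs of the same kind, with starts 72 bases apart for Col4a4 and Col4a3 on chromosome 1 and 1309 bases apart for Col4a6 and Col4a5 on chromosome X. The promoters of this highest pair are shown because both genes start from 1 shared stretch, and those of Col5a1 and Col20a1 because these genes were called for both treatments in every fit of batch 1 that left out 1 library, and differ in GC content. Col11a2 was also called in all of those fits, and its promoter is not shown. Each sequence runs 5′ to 3′ on the strand of its gene from 250 bases before the RefSeq start to 50 after it (GRCm38.p6), and capitals mark the CCAAT box, the GC box GGGCGG, the TATA box TATAAA and the receptor element arm TGTTCT on either strand. They are chr8:11312777-11313076 on the minus strand for Col4a1, chr8:11312555-11312854 on the plus strand for Col4a2, chr2:27886175-27886474 on the plus strand for Col5a1 and chr2:180986285-180986584 on the plus strand for Col20a1.
Col4a1: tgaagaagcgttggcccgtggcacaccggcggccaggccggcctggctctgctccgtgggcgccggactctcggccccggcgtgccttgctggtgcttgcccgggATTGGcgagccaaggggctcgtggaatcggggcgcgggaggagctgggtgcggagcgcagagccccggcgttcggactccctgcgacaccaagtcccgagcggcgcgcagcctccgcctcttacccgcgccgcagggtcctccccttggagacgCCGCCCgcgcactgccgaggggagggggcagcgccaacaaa
Col4a2: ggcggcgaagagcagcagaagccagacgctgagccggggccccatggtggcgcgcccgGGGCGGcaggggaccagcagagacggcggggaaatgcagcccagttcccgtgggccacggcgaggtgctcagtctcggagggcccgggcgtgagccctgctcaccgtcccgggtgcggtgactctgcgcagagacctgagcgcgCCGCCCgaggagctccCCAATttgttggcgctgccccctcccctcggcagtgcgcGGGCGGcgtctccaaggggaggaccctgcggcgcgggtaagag
Col5a1: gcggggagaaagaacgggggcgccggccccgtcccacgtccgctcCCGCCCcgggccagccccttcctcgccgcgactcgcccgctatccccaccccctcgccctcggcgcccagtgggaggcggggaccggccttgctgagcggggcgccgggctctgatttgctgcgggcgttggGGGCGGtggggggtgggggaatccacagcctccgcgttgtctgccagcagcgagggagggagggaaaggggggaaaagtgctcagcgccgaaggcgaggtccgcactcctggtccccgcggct
Col20a1: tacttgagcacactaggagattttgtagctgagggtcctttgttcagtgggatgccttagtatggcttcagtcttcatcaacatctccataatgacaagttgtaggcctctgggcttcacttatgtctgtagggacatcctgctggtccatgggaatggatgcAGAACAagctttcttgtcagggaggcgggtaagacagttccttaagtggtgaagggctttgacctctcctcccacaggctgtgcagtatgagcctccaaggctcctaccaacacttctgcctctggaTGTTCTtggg
The windows of Col4a1 and Col4a2 share 78 bases, so that 1 GC box (GGGCGG on the Col4a2 strand) is read from both. The 2 type IV windows and that of Col5a1 had a GC content of 74%, 73.7% and 75%, and that of Col20a1 had 50%.

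A promoter was found for 35 of the 44 genes, with 38 windows in all. GGGCGG, the GC box, was in 23 of the 38 windows (60.5%) and in 35.7% of all 32851 mouse promoter windows of the same length. CCAAT was in 13 (34.2%, against 37.4% of all) and TATAAA in 5 (13.2%, against 13.6%). The full glucocorticoid response element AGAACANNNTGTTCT was in 0 of the 38 and in 3 of all promoter windows (0.00913%). Its right arm TGTTCT alone was in 2 of the 38 (5.26%, against 19% of all), with 2 matches in the Col20a1 window and the other in a window of Col9a1. These counts describe letters in a short window and say nothing of binding.

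Over both batches, with the batch as a covariate, no collagen gene differed between groups at an adjusted p under 0.05. DEX was compared with control to see which genes move under a glucocorticoid, and DEX + RU-486 was compared with both to see whether the receptor antagonist changes this. Of the 40 genes with a mean above 5 counts, 0 were called in each of the 3 comparisons (edgeR quasi-likelihood test, p adjusted by Benjamini-Hochberg over 20355 genes). Of all tested genes, 0.0147% were called higher and 0.00983% lower with DEX than in control, and 0% in either direction in the other 2 comparisons. With an unadjusted p under 0.05, 7 collagen genes were higher and 2 (Col5a2 and Col26a1) lower with DEX, where 6.86% and 10.1% of all genes were. For DEX + RU-486 against control the counts were 3 higher (Col5a3, Col11a2 and Col5a1) and 0 lower (4.19% and 6.63% of all genes), and against DEX 1 higher (Col5a2) and 0 lower (1.44% and 1.23%). DESeq2 called 1 gene, Col20a1, higher with DEX than in control (1.15% of all genes) and 0 in the other comparisons. The remaining 4 genes were too low to be tested, with mean counts of 4.69 for Col24a1, 4.53 for Col28a1, 4.08 for Col4a5 and 2.61 for Col4a6. Beside this, the log2 difference between DEX and control was 0.82 ± 0.27 (SE; edgeR adjusted p = 0.12) for Col20a1, 0.75 ± 0.25 (0.13) for Col5a1 and 0.71 ± 0.26 (0.16) for Col11a2.

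Batch 1 held differences that the fit of both batches did not. Fitted alone over its 18 libraries, it gave 9 collagen genes higher and 0 lower with DEX than in control, of 35 tested, where 9.61% of all 19075 genes were called higher and 10.2% lower. DEX + RU-486 against control also gave 9 higher and 0 lower, where 7.72% of all genes were called higher and 8.77% lower. The median log2 difference over the 35 genes was 0.82 with DEX and 0.45 with DEX + RU-486, against 0.05 and 0.04 over all genes. Of the 35, 28 and 29 were above 0, against 54.2% and 53.5% of all genes. These 2 comparisons share the control libraries. By class, 5 of 10 tested fibrillar genes, 2 of 8 FACIT genes, 1 of 3 type IV genes and 1 of 2 multiplexins were called higher with DEX, and 5, 3, 0 and 1 with DEX + RU-486. Of the 4 beaded filament, 4 transmembrane, 2 short-chain, 1 anchoring fibril and 1 other gene tested, edgeR called none in either comparison. DESeq2 called 12 higher and 1 lower, Col26a1, with DEX (13% and 10.9% of all genes), and 11 higher with DEX + RU-486 (11.4%). Of the 35 genes, 4 (Col4a4, Col9a1, Col10a1 and Col17a1) passed the filter on a mean above 5 counts through 1 group alone, and of these edgeR called only Col9a1, which passed through the DEX libraries. Between DEX + RU-486 and DEX, 0 of the 35 were called by edgeR and by DESeq2 (0% of all genes by edgeR). An unadjusted p under 0.05 was found for 0 higher and 1 lower, Col9a1, where 1.7% of all genes were higher and 2.29% lower. In bulk RNA, fewer cells of a type and less RNA per cell cannot be told apart.

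**Figure D2:**
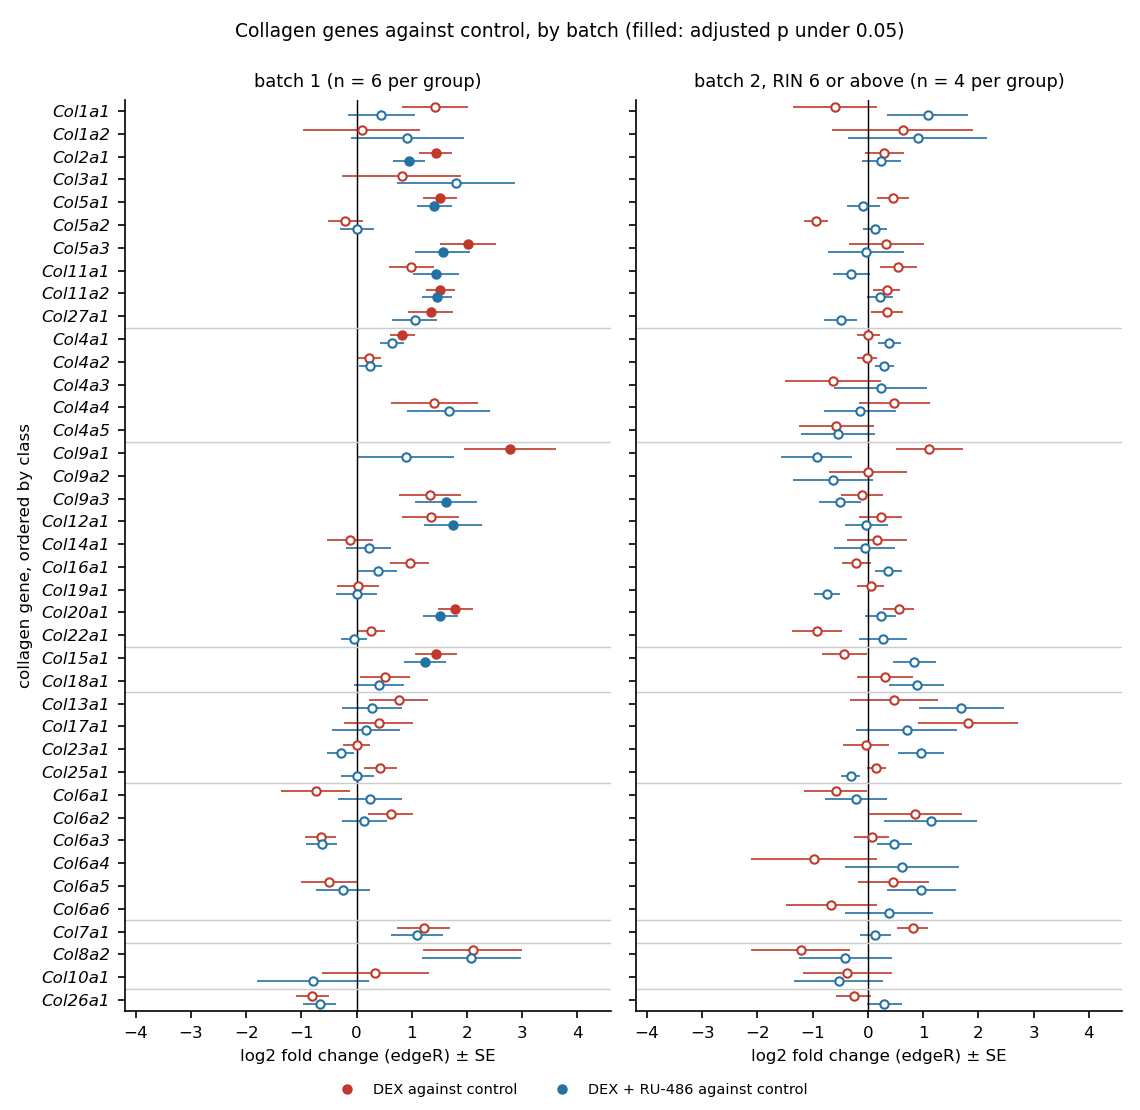
Log2 fold change of each tested collagen gene in batch 1 and in the intact libraries of batch 2, with bars of 1 SE, for DEX against control and DEX + RU-486 against control; filled points had an adjusted p under 0.05. In batch 1 the 9 filled points of each comparison lie above 0, and among the intact libraries of batch 2 no point of these comparisons is filled.

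Among the fibrillar genes, Col11a2 (ENSMUSG00000024330, chr17:34039437-34066685), the α2 chain of type XI, was the highest. In batch 1 its lowest, median and highest levels were 2.45, 4.14 and 7.13 CPM in control, 8.66, 11.9 and 19.1 CPM with DEX, and 6.27, 10.7 and 18.4 CPM with DEX + RU-486. Every DEX library of batch 1 was above every control library, and the DEX + RU-486 libraries overlapped the control range only at its top. Col11a2 rose by 1.52 ± 0.27 (log2, SE, n = 6 per group; edgeR adjusted p = 0.00121) with DEX and by 1.46 ± 0.27 (adjusted p = 0.0024) with DEX + RU-486. Of the 35 collagen genes, 3 (Col11a2, Col20a1 and Col2a1) did not overlap between DEX and control in batch 1, all higher with DEX, where 3.37% of all genes were higher without overlap and 7.11% lower. With DEX + RU-486 against control 1 gene, Col20a1, did not overlap, where 2.12% of all genes were higher without overlap and 5.49% lower.

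Col5a1 (ENSMUSG00000026837, chr2:27886425-28039514), the α1 chain of type V, which is needed to start collagen I fibrils, was also higher. Its levels in batch 1 were 0.782, 1.12 and 2.92 CPM in control, 2.14, 4.37 and 4.99 CPM with DEX, and 2.28, 4.13 and 4.91 CPM with DEX + RU-486. The ranges overlapped because 1 control library reached the bottom of the treated ranges. Col5a1 rose by 1.51 ± 0.31 (adjusted p = 0.00271) and 1.41 ± 0.31 (adjusted p = 0.006). Col5a3, the α3 chain of type V, was low, with 0.0495, 0.16 and 0.551 CPM in control, 0.407, 0.844 and 1.39 CPM with DEX and 0.385, 0.568 and 1.08 CPM with DEX + RU-486, and rose by 2.02 ± 0.51 (adjusted p = 0.00878) and 1.56 ± 0.50 (adjusted p = 0.0377). Col5a2, the α2 chain that normally assembles with α1(V), did not pass the test, with medians of 4.23, 3.8 and 4.05 CPM and log2 differences of -0.20 ± 0.31 and 0.01 ± 0.31. Chains of 1 collagen type thus differed in whether they were called, and the difference between chains was not tested.

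Col2a1 (ENSMUSG00000022483, chr15:97975602-98004695), the main chain of cartilage, was between 1.16 and 2.09 CPM in the batch 1 controls (median 1.34). It was between 2.38 and 5.5 CPM with DEX (median 3.8) and between 1.33 and 4.25 CPM with DEX + RU-486 (median 2.67). It rose by 1.43 ± 0.30 (adjusted p = 0.0027) and 0.95 ± 0.29 (adjusted p = 0.0315), and overlapped the controls only with RU-486 present. Col27a1, a cartilage fibrillar chain, had medians of 0.461, 1.33 and 1.12 CPM and rose with DEX by 1.34 ± 0.40 (adjusted p = 0.0229), while its value with DEX + RU-486 was 1.05 ± 0.40 (adjusted p = 0.0757). Col11a1, the partner of Col11a2 in type XI, had medians of 1.07, 2.34 and 2.74 CPM and was called only with DEX + RU-486, at 1.44 ± 0.41 (adjusted p = 0.0221) against 0.99 ± 0.41 (adjusted p = 0.0968) with DEX. No fibrillar gene differed between DEX and DEX + RU-486 in batch 1, where the values of these 6 genes lay between -0.48 ± 0.29 for Col2a1 and 0.45 ± 0.41 for Col11a1. With such errors, a difference of the size of the errors would not have been detectable.

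**Figure D3:**
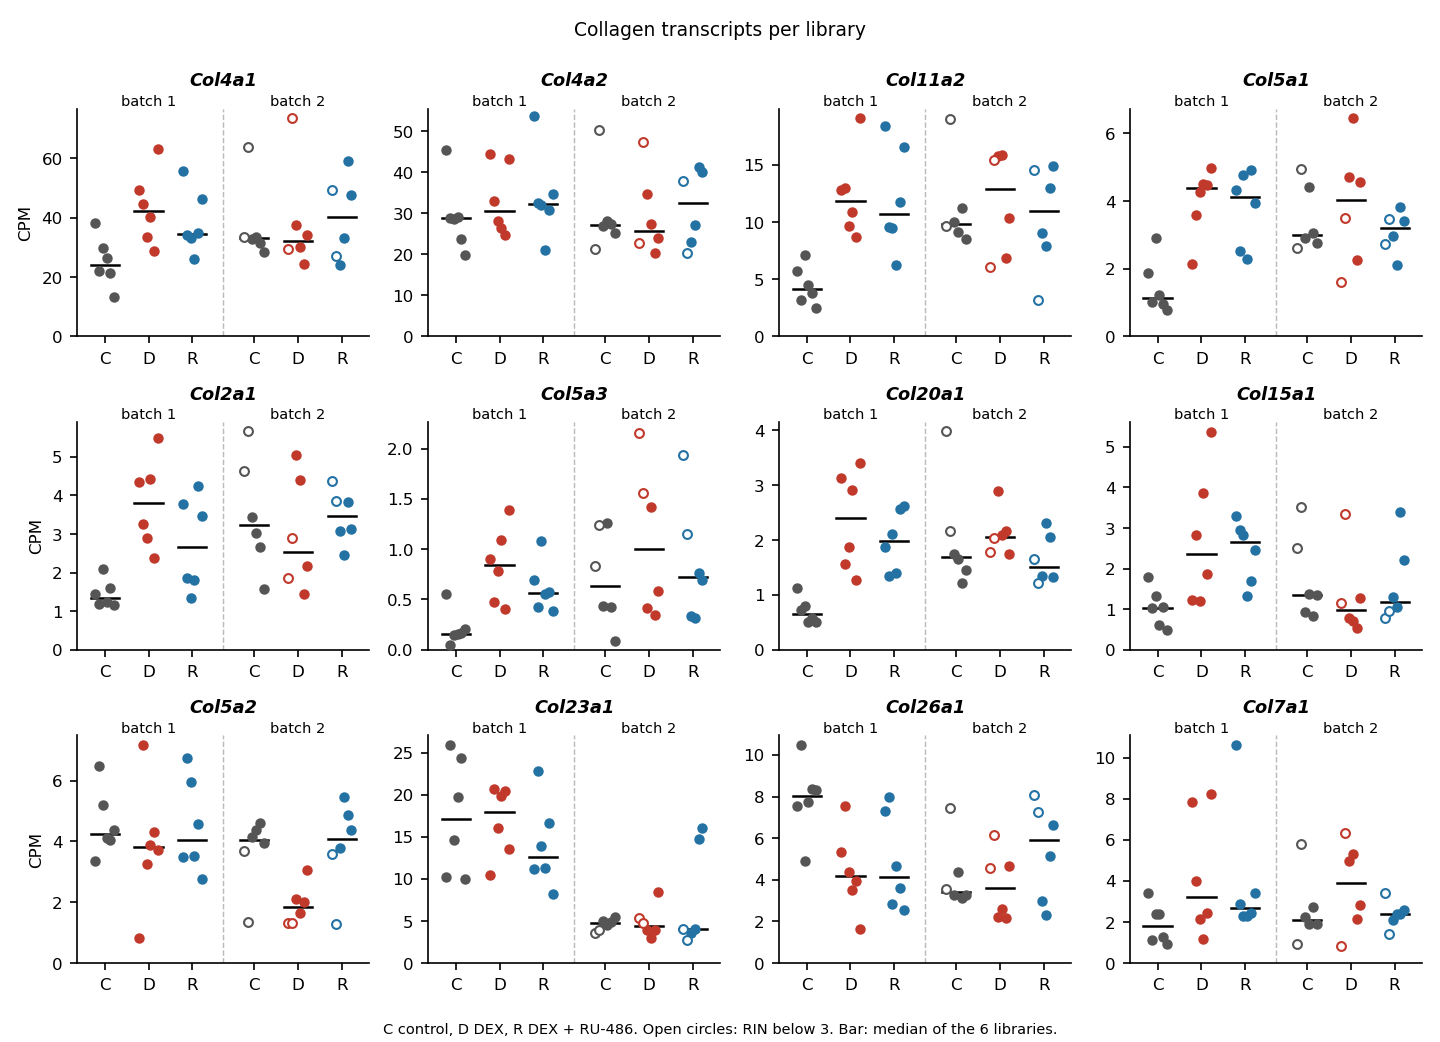
Level in CPM of 12 collagen genes in each of the 36 libraries, by group and batch, with bars at the median of 6 libraries and open circles for libraries of RIN below 3. In batch 1 the Col11a2 and Col20a1 libraries with DEX lie above all control libraries, and in batch 2 the groups overlap for both genes.

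Among the FACIT genes, Col20a1 (ENSMUSG00000016356, chr2:180986535-181018363) stood out in batch 1. Its levels were 0.505, 0.647 and 1.13 CPM in control, 1.28, 2.39 and 3.41 CPM with DEX, and 1.35, 1.99 and 2.62 CPM with DEX + RU-486. Every treated library was above every control library. Col20a1 rose by 1.79 ± 0.32 (adjusted p = 0.00115) and 1.52 ± 0.32 (adjusted p = 0.00441). An annotated overlapping transcript, BX649560.1, shares 79 exon bases (1.54%) with Col20a1 on the same strand and had a mean of 125 counts against 42.9 for Col20a1, so its reads may be divided between them. Col9a1, a type IX chain of cartilage and eye, was called with DEX at 2.78 ± 0.84 (adjusted p = 0.0229), but it was tested only because of the group where it was high, with a mean of 4.17 counts in control, 8.17 with DEX and 3.0 with DEX + RU-486, so this call is no support for a difference. Its batch 1 libraries held 0 to 12 counts in control and 0 to 24 with DEX, and among the batch 1 libraries with a RIN of 6 or above it was too low to be tested. Over the libraries of RIN 6 or above of both batches it was called at 1.59 ± 0.53 (adjusted p = 0.0313). With DEX + RU-486 the log2 difference of Col9a1 was 0.90 ± 0.87.

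Col12a1, a FACIT of tendon and other dense tissue, had medians of 0.803, 1.53 and 2.58 CPM, and was called with DEX + RU-486 at 1.75 ± 0.52 (adjusted p = 0.0254) but not with DEX at 1.34 ± 0.52 (adjusted p = 0.0725). Col9a3, another type IX chain, had 0.446 to 1.17 CPM in control, 0.0823 to 4.11 CPM with DEX and 0.742 to 6.47 CPM with DEX + RU-486, and passed at 1.62 ± 0.56 (adjusted p = 0.0497) with DEX + RU-486, against 1.33 ± 0.56 (adjusted p = 0.0982) with DEX. The call of Col9a3 held in 5 of 18 fits that left out 1 library, where its lowest value was 1.03 and its highest adjusted p 0.21 (edgeR). Its exons share 234 bases (6.07%) with Tcfl5 on the other strand, and since the sources do not say that counting used the strand, its level is uncertain. The other FACIT genes showed no called difference. Col16a1 had medians of 2.14, 3.22 and 2.76 CPM, Col19a1 2.44, 2.2 and 2.31 CPM, and Col22a1, a collagen of muscle and tendon junctions, 2.28, 2.72 and 2.28 CPM.

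For type IV collagen, the α1 gene rose with DEX in batch 1 and the α2 gene did not pass the test. Col4a1 levels were 13.4, 24.1 and 38.1 CPM in control, 28.9, 42.4 and 63.2 CPM with DEX, and 26, 34.6 and 55.7 CPM with DEX + RU-486. Col4a2 levels were 19.9, 28.8 and 45.5 CPM, 24.8, 30.5 and 44.4 CPM, and 21, 32.2 and 53.8 CPM. All ranges overlapped the control range. Col4a1 rose by 0.83 ± 0.22 with DEX (adjusted p = 0.0123) and was at 0.64 ± 0.22 (adjusted p = 0.0504) with DEX + RU-486, while Col4a2 was at 0.23 ± 0.21 (adjusted p = 0.463) and 0.25 ± 0.21 (adjusted p = 0.437). Across libraries the log2 levels of the pair had a correlation of 0.84 over all 36, 0.82 over the 18 of batch 1 and 0.93 over the 12 intact libraries of batch 2, given as a description, since the points share library depth and treatment.

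The ratio of Col4a1 counts to Col4a2 counts within a library needs no scaling. It was examined after the levels were seen, a choice that its p-values do not cover. In batch 1 it was 0.675, 0.869 and 1.05 in control, 1.11, 1.27 and 1.53 with DEX, and 1.04, 1.1 and 1.33 with DEX + RU-486. Every DEX library had a higher ratio than every control library, and DEX + RU-486 touched the control range at 1 end. The mean log2 ratio was higher than in control by 0.61 with DEX (two-sided exact permutation test, p = 0.00216, the smallest that 6 against 6 can give; adjusted over 6 such tests, p = 0.013) and by 0.42 with DEX + RU-486 (exact permutation p = 0.00649, adjusted 0.0195). Between DEX + RU-486 and DEX it differed by -0.19 (exact permutation p = 0.0844, adjusted 0.169). Among the intact libraries of batch 2 the ratio was 1.13 to 1.22 in control, 1.08 to 1.42 with DEX and 1.06 to 1.43 with DEX + RU-486, and the differences of 0.03, 0.06 and 0.03 had exact permutation p-values of 0.857, 0.571 and 0.914. The 6 libraries with a RIN below 3 had ratios of 1.27 to 1.58, and in batch 1 the control libraries had the highest RIN. Within the batch 1 libraries of RIN 6 or above the differences from control were 0.58 (exact permutation p = 0.00433) and 0.38 (p = 0.013). In these libraries the RIN was still 7.8 to 9.2 in control, 6.2 to 7.8 with DEX and 6.6 to 7.9 with DEX + RU-486. The part of RNA integrity in this ratio was not tested. The other type IV genes were too low for a comparison of this kind, with medians at or below 0.255 CPM in every group of batch 1.

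Of the 2 multiplexins, whose C-terminal fragments include endostatin, Col15a1 (ENSMUSG00000028339, chr4:47208161-47313167) rose and Col18a1 was not called. Col15a1 levels in batch 1 were 0.479, 1.03 and 1.8 CPM in control, 1.2, 2.35 and 5.37 CPM with DEX, and 1.32, 2.65 and 3.3 CPM with DEX + RU-486. Each treated range overlapped the top of the control range. Col15a1 rose by 1.43 ± 0.38 (adjusted p = 0.0126) and 1.24 ± 0.38 (adjusted p = 0.0306), and Col18a1 was at 0.51 ± 0.45 and 0.41 ± 0.45 with medians of 1.04, 1.19 and 1.39 CPM.

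No transmembrane collagen, a class that neurons also make, was called in batch 1. Col23a1 (ENSMUSG00000063564, chr11:51289920-51583918) had medians of 17.1, 18 and 12.6 CPM and log2 differences of -0.00 ± 0.25 and -0.29 ± 0.25. Col25a1, the precursor of a protein found in amyloid plaques, had medians of 3.22, 4.07 and 3.37 CPM, with differences of 0.43 ± 0.30 and 0.01 ± 0.30. Col13a1, a collagen of the neuromuscular junction, had medians of 0.271, 0.413 and 0.284 CPM. The median of Col23a1 was 15.4 CPM in batch 1 and 4.73 CPM in the intact libraries of batch 2, where DEX + RU-486 libraries 35 and 36 were the highest at 14.8 and 16.1 CPM. All 44 genes overlapped between batch 1 and these intact libraries.

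The genes lower with treatment in batch 1 did not pass the threshold by edgeR, while Col26a1 was called lower with DEX by DESeq2. Col26a1 had 4.89, 8.02 and 10.5 CPM in control, 1.64, 4.17 and 7.57 CPM with DEX, and 2.54, 4.15 and 7.99 CPM with DEX + RU-486, with log2 differences of -0.80 ± 0.30 (adjusted p = 0.067) and -0.67 ± 0.30 (adjusted p = 0.126). Col6a3, a chain of the beaded microfibrils of type VI, had medians of 3.06, 2.01 and 1.98 CPM and differences of -0.65 ± 0.28 and -0.63 ± 0.28. The other type VI genes tested, Col6a1, Col6a2 and Col6a5, lay between -0.74 ± 0.62 and 0.62 ± 0.41 with DEX. Col7a1, which forms the anchoring fibrils of skin, had medians of 1.82, 3.22 and 2.66 CPM, with differences of 1.22 ± 0.48 (adjusted p = 0.0743) and 1.09 ± 0.47 (adjusted p = 0.117). The short-chain genes Col8a1, Col8a2 and Col10a1 had medians at or below 0.403 CPM in every group of batch 1.

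Among the 28 libraries of RIN 6 or above in both batches, 6 collagen genes were called higher with DEX (Col20a1, Col2a1, Col11a2, Col9a1, Col5a1 and Col27a1; 8.06% of all genes) and 3 with DEX + RU-486 (Col20a1, Col11a2 and Col15a1; 3.09%). The batch 1 calls were compared with alternatives that bear on RIN, depth and the Xist classes. Within the 16 libraries of RIN 6 or above, 8 collagen genes were called higher with DEX than in control (9.14% of all genes) and 8 with DEX + RU-486 (6.29%). In these 16 the RIN was still 7.8 to 9.2 in control, 6.2 to 7.8 with DEX and 6.6 to 7.9 with DEX + RU-486. RIN and treatment therefore could not be told apart in full there either. With all libraries thinned to the 12.1 M counts of the shallowest, 8 and 8 of the 29 genes still tested were called higher (10.6% and 8.53% of all genes). With the Xist class as a covariate, 10 and 9 were called higher (8.67% and 6.95% of all genes), and Col26a1 was called lower with DEX (10.1%). When each library was left out in turn, between 7 and 12 genes were called higher with DEX (5.82% to 11.4% of all genes), and Col11a2, Col15a1, Col20a1, Col2a1, Col4a1, Col5a1 and Col5a3 were called in all 18 fits. For DEX + RU-486 the count lay between 3 and 10 (3.66% to 9.8% of all genes), with 3 called without control library 2 or without control library 5 and 4 without DEX + RU-486 library 15, and Col11a2, Col20a1 and Col5a1 were called in all 18. The other calls with DEX + RU-486 held in 14 of the 18 fits for Col11a1, 13 for Col12a1, 11 for Col15a1, 10 each for Col2a1 and Col5a3, and 5 for Col9a3.

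Batch 2 gave few collagen differences. Over its 18 libraries 0 of 42 tested genes were called in any comparison, as 0% of all 21682 genes were, and an unadjusted p under 0.05 was found for Col5a2 lower with DEX (1.12% of all genes), Col9a3 lower with DEX + RU-486 (0.434%) and Col5a2 higher with DEX + RU-486 than with DEX (1.11%), with 0 in the other directions (1.04%, 0.392% and 0.969%). Over the 12 intact libraries 0 of 39 were called for DEX against control, where 0.324% of all 20652 genes were called higher and 0.237% lower. For DEX + RU-486 against control 0 were called, where 0% and 0.00484% of all genes were. An unadjusted p under 0.05 was found for Col7a1 higher and Col5a2 lower with DEX (8.5% and 8.55% of all genes), and for Col13a1, Col15a1 and Col23a1 higher and Col19a1 lower with DEX + RU-486 (3.67% and 3.76%). In DEX + RU-486 libraries 33 to 36, Col15a1 was at 1.31, 1.05, 3.39 and 2.21 CPM, Col23a1 at 3.6, 4.04, 14.8 and 16.1 CPM, Col13a1 at 0.45, 0.382, 0.918 and 0.605 CPM, and Col19a1 at 2.89, 2.42, 1.9 and 1.51 CPM, so that libraries 35 and 36 held the 2 highest values of the first 3 and the 2 lowest of Col19a1. DESeq2 called 1 lower with DEX, Col5a2 (2.3% of all genes), and 0 with DEX + RU-486.

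Col5a2 (ENSMUSG00000026042, chr1:45374321-45503282) was the 1 collagen gene that edgeR called in batch 2, between DEX + RU-486 and DEX in the intact libraries. In the intact libraries it was at 4.15, 4.38, 4.6 and 3.94 CPM in control, 2.1, 1.64, 2.02 and 3.06 CPM with DEX, and 3.79, 5.47, 4.87 and 4.36 CPM with DEX + RU-486. All 4 DEX libraries were below every library of the other groups, and control and DEX + RU-486 overlapped. Against DEX, Col5a2 was higher with DEX + RU-486 by 1.07 ± 0.21 (n = 4 per group; edgeR adjusted p = 0.0317), where 0.746% of all genes were called higher and 0.775% lower. It was the only collagen gene that edgeR called in this comparison, and 6 were higher and 6 lower with an unadjusted p under 0.05 (9.99% and 9.15% of all genes). In the same comparison 2 of 5 oligodendrocyte precursor markers were called lower with DEX + RU-486, Sox10 (-1.64, log2) and Cspg4 (-1.15). The precursor sum was 54.1 to 68.1 CPM in control and 62.1 to 74.8 CPM with DEX. In DEX + RU-486 libraries 33 to 36 the sum was 41.3, 50.6, 20.7 and 25 CPM, so libraries 35 and 36 were the lowest. The part of these markers in the Col5a2 difference was not tested. The value of Col5a2 for DEX against control was -0.94 ± 0.21 (edgeR adjusted p = 0.0522). The call between DEX + RU-486 and DEX was absent over all 18 libraries of batch 2 (1.01 ± 0.35, adjusted p = 1) and without DEX + RU-486 libraries 35 and 36, and it held in 4 of the 12 fits that left out 1 library. In batch 1 Col5a2 differed between the same groups by 0.21 ± 0.31. Over both batches the value was 0.61 ± 0.24 (adjusted p = 1).

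Without overlap between the intact groups of batch 2, DEX was lower than control for 2 genes, Col22a1 and Col5a2, and higher for 0 (4.47% of all genes were higher and 6.83% lower in this sense). DEX + RU-486 was higher than control for Col13a1 and lower for Col19a1 (2.79% and 4% of all genes). DEX + RU-486 was higher than DEX for Col13a1 and Col5a2 and lower for Col19a1, Col25a1, Col27a1 and Col9a1 (4.42% and 3.93%). With 4 libraries a group such separation is common among all genes. Col19a1, a FACIT that interneurons make, was at 3.43, 4.22, 4 and 3.02 CPM in control, 4.85, 3.91, 3.24 and 3.09 CPM with DEX and 2.89, 2.42, 1.9 and 1.51 CPM with DEX + RU-486, and its difference between DEX + RU-486 and DEX was -0.79 ± 0.24 (edgeR adjusted p = 0.09). DESeq2 called Col15a1 as well as Col5a2 higher and Col19a1 lower in this comparison (3.39% and 3.62% of all genes).

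The genes called in batch 1 were not called against control in batch 2 by edgeR, and part of them lay on the other side of 0. Col11a2 in the intact libraries was at 10, 9.13, 11.2 and 8.5 CPM in control, 15.8, 15.9, 6.87 and 10.4 CPM with DEX and 9.01, 7.92, 13 and 14.9 CPM with DEX + RU-486. Col20a1 was at 1.75, 1.65, 1.22 and 1.46 CPM, 2.89, 2.09, 2.17 and 1.75 CPM, and 1.35, 2.32, 2.06 and 1.33 CPM. The intact batch 2 controls of both genes lay above all 6 controls of batch 1. The log2 difference between DEX and control was 0.34 ± 0.24 for Col11a2 and 0.56 ± 0.28 for Col20a1 (edgeR adjusted p = 0.488 and 0.315), and for Col5a1, Col2a1 and Col4a1 it was 0.46 ± 0.29, 0.30 ± 0.35 and 0.01 ± 0.20. Col15a1, a multiplexin that was higher by 1.43 ± 0.38 with DEX in batch 1, was at 0.936, 1.37, 0.834 and 1.34 CPM in the intact controls and 0.79, 0.711, 0.535 and 1.27 CPM with DEX, overlapping groups with a difference of -0.43 ± 0.41 (adjusted p = 0.625). Among libraries of RIN 6 or above its difference between the batches had a term of -1.50 ± 0.58 (edgeR adjusted p = 0.147, unadjusted p = 0.0142).

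Of the 9 genes called with DEX in batch 1, the difference in batch 2 was below 0 for 1 in the intact libraries, Col15a1, and for 4 over all 18 libraries, Col15a1 (-0.39 ± 0.51), Col9a1 (-0.35 ± 0.86), Col2a1 (-0.19 ± 0.33) and Col27a1 (-0.16 ± 0.60). Of all genes called higher with DEX in batch 1, 24% and 32.7% were below 0 in these sets. Of the 9 called with DEX + RU-486, 5 were below 0 in the intact libraries, Col9a3 (-0.50 ± 0.38), Col11a1 (-0.30 ± 0.33), Col5a1 (-0.08 ± 0.29), Col12a1 (-0.03 ± 0.39) and Col5a3 (-0.03 ± 0.69), and 8 over all 18, the exception being Col5a3 (0.28 ± 0.64), with Col9a3 the lowest at -1.03 ± 0.48. Of all genes called higher with DEX + RU-486 in batch 1, 37.9% and 44.7% were below 0. None of these batch 2 differences was called.

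Whether a difference depended on the batch was tested with an interaction term over all 36 libraries. It called 0 of the 40 genes in any comparison, where 0.133% of all genes were called with a higher and 0.0393% with a lower difference in batch 2 for DEX against control, 0.0393% and 0.0442% for DEX + RU-486 against control and 0% for DEX + RU-486 against DEX. At an unadjusted p under 0.05, 11 collagen genes had a lower difference between DEX and control in batch 2 than in batch 1 and 0 a higher one (6.47% and 6.39% of all genes). For DEX + RU-486 against control these were 8 and 2 genes (5.55% and 6.32%), and for DEX + RU-486 against DEX 0 and 0 (0.865% and 1.42%). The lowest p was that of Col20a1, whose difference was lower in batch 2, with a term of -1.66 ± 0.42 (adjusted p = 0.086) for DEX and -1.76 ± 0.43 (adjusted p = 0.0805) for DEX + RU-486. DESeq2 called the term for Col20a1 and Col2a1 with DEX, and for Col20a1, Col11a2, Col5a1, Col9a3 and Col11a1 with DEX + RU-486, all lower in batch 2, where it called 0.914% and 0.683% of all genes lower. With RIN as a covariate edgeR called the term for 2 genes with DEX + RU-486, Col20a1 and Col5a1, both lower in batch 2 (0.614% of all genes).

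Because collagen marks vessels, meninges and fibroblasts, the markers of these cells were counted beside it. Of the 8 meningeal fibroblast markers, Slc6a13 and Aldh1a2 were at 0 counts in 29 of the 36 libraries each, Lum in 26, Twist1 in 23, Dcn in 16, Fmod in 14, Ogn in 10 and Foxc1, the highest with a mean of 1.21 CPM, in 0. Their summed level in batch 1 was 0.252, 0.659 and 1.15 CPM in control, 0.676, 2.35 and 2.41 CPM with DEX, and 0.394, 2.4 and 7.05 CPM with DEX + RU-486. The 8 endothelial markers summed to 0.626, 1.68 and 2.5 CPM, 2.03, 3.6 and 10.7 CPM, and 1.71, 3.34 and 16.3 CPM, and the 8 mural markers to 2.28, 3.99 and 4.99 CPM, 1.89, 5.07 and 14.2 CPM, and 3.52, 7.87 and 12.8 CPM. The highest endothelial sums were those of the 2 libraries of batch 1 with a RIN below 6, DEX 12 (RIN 3.9) and DEX + RU-486 18 (RIN 5.6), and the highest mural sum with DEX was that of DEX 12. Without these 2 libraries the endothelial sums ended at 4.42 CPM with DEX and 4.82 CPM with DEX + RU-486, and the mural sums at 7.4 and 12.8 CPM. Neuronal markers, at 1820 to 3200 CPM in the same libraries, were higher by orders of magnitude. In batch 1, where 9.61% of all genes were called higher with DEX and 7.72% with DEX + RU-486, 4 of the 8 endothelial, 4 of the 8 mural and 2 of the 8 meningeal markers were high enough to be tested. Of the 4 endothelial ones, Kdr was called higher with DEX (3.25, log2), and Kdr (3.04), Cldn5 (3.84) and Flt1 (2.33) with DEX + RU-486. Of the 4 mural ones Rgs5 was called higher with DEX (2.13) and 0 with DEX + RU-486, and of the 2 meningeal ones 0 with DEX and Foxc1 (2.25) with DEX + RU-486.

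Glial and neuronal markers were also called in batch 1, against 9.61% of all genes higher and 10.2% lower with DEX, and 7.72% and 8.77% with DEX + RU-486. Of 6 astrocyte markers 3 were called higher with DEX in batch 1 (Gfap 2.75, Gja1 2.58 and Aldh1l1 1.87, log2) and 2 with DEX + RU-486. The astrocyte markers Aqp4 (-0.65), Slc1a2 (0.06) and Slc1a3 (0.30) were not called with DEX. With DEX + RU-486, Aqp4 (-1.43), Slc1a2 (-0.14), Slc1a3 (0.38) and Aldh1l1 (1.26) were not called. Of 5 oligodendrocyte precursor markers 3 were called higher with DEX (Sox10 2.42, Olig1 2.19 and Olig2 1.53) and 2 with DEX + RU-486. The precursor markers summed to 5.87 to 19.9 CPM in control, 20.5 to 82.2 CPM with DEX and 14.2 to 53.1 CPM with DEX + RU-486, the highest again in DEX 12 and DEX + RU-486 18, without which they ended at 61.3 and 29.2 CPM, and the astrocyte markers to 27.5 to 43.2, 28.7 to 61 and 29 to 52.4 CPM. Of 7 neuron markers 5 were called lower with DEX and 3 with DEX + RU-486, and their sum had medians of 2860, 1960 and 2190 CPM. The part of the cell makeup and of the RNA integrity in the collagen differences was not tested. In the intact libraries of batch 2, where edgeR called no collagen gene against control and DESeq2 called Col5a2 lower with DEX, the meningeal sum was 0.696 to 2.16 CPM, the endothelial sum 1.44 to 3.62 CPM and the mural sum 2.58 to 7.15 CPM.

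**Figure D4:**
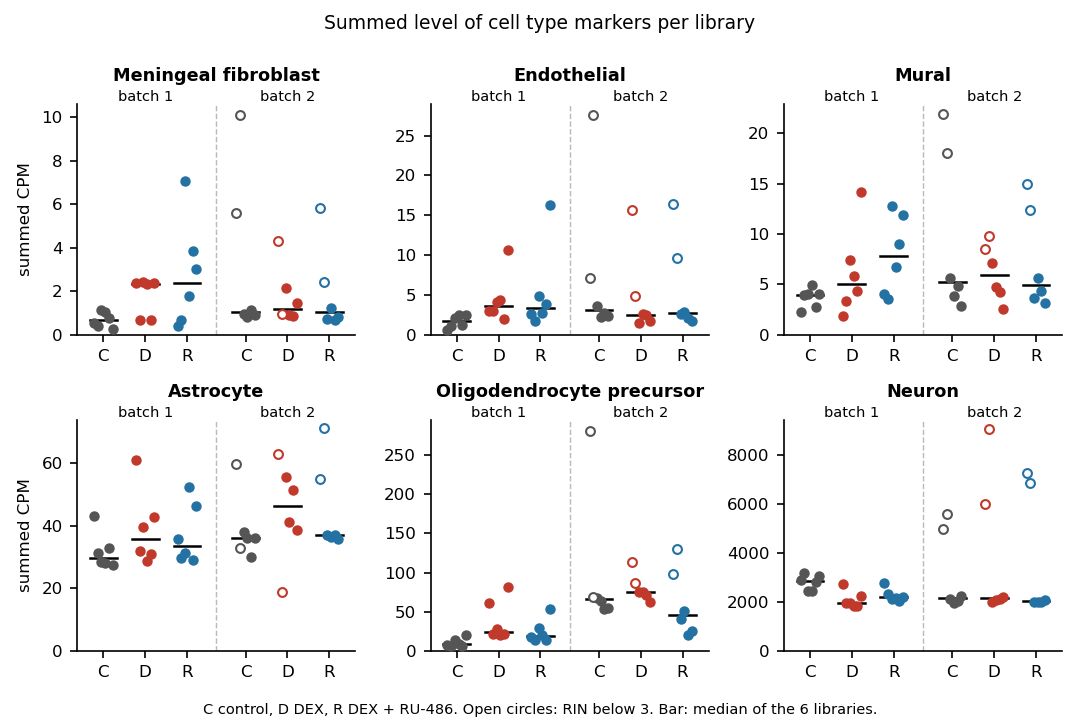
Summed level in CPM of the markers of meningeal fibroblasts, endothelial cells, mural cells, astrocytes, oligodendrocyte precursors and neurons in each library, by group and batch, with bars at the median of 6 libraries and open circles for libraries of RIN below 3. The precursor sums with DEX in batch 1, from 20.5 CPM, lie above the control sums, which end at 19.9 CPM, and the neuron sums are the highest in all libraries.

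Of the fibroblast collagens of types I and III, Col3a1 and Col1a2 were higher in the high-Xist libraries of batch 1. Col3a1 (ENSMUSG00000026043, chr1:45311538-45349706) had a lowest, median and highest level of 0.1, 1.51 and 4.94 CPM in the 10 libraries of batch 1 with high Xist, and was at 1 CPM or more in 8 of them. In the 8 others of batch 1 it was 0, 0.0494 and 0.308 CPM, and in the 18 of batch 2 it was 0, 0.0725 and 0.922 CPM. Col1a2 had medians of 0.801, 0.025 and 0.134 CPM in the same sets, and reached 2.23 CPM in the first. Col1a1 (ENSMUSG00000001506, chr11:94936224-94953042) did not follow this, with medians of 0.387, 0.413 and 0.558 CPM. Each treatment had high-Xist libraries (control 1, 3, 4 and 5, DEX 9, 10 and 11, DEX + RU-486 15, 16 and 17), and this description carries no test since the sets were noticed in the data. Between treatments in batch 1 the log2 difference of Col3a1 was 0.82 ± 1.08 with DEX and 1.80 ± 1.06 with DEX + RU-486 (adjusted p = 0.64 and 0.257).

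**Figure D5:**
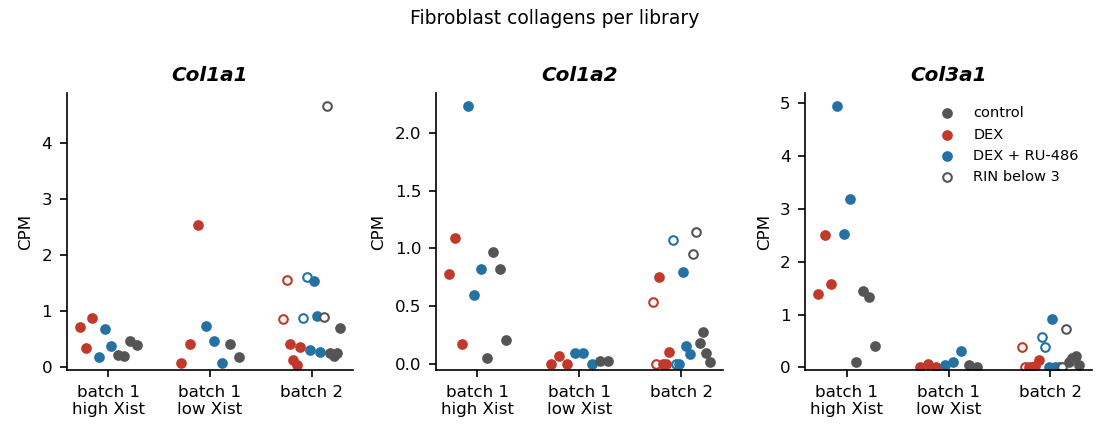
Level in CPM of Col3a1, Col1a2 and Col1a1 in each library, split into the high-Xist and low-Xist libraries of batch 1 and the libraries of batch 2, with the treatment shown by colour and open circles for libraries of RIN below 3. Col3a1 is at 1 CPM or more in 8 of the 10 high-Xist libraries and at or below 0.308 CPM in the low-Xist ones, while Col1a1 overlaps across the 3 sets.

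The genes that make, cut and sense collagen were counted from lists, beside the same shares of all genes, 9.61% higher and 10.2% lower with DEX in batch 1, and 7.72% and 8.77% with DEX + RU-486. Of 27 tested genes of collagen synthesis and processing, 7 were called higher and 0 lower with DEX than in control in batch 1. They were Serpinh1 (log2 difference 2.03), the collagen chaperone Hsp47, Loxl1 (2.37), a lysyl oxidase that crosslinks fibres, the lysyl hydroxylases Plod1 (1.14) and Plod3 (0.40), the prolyl 3-hydroxylases P3h3 (0.97) and P3h1 (0.63), and Mia3 (0.34), which loads procollagen into transport carriers. With DEX + RU-486 4 of these were called, Loxl1 (3.03), Serpinh1 (1.84), P3h3 (0.85) and P3h1 (0.81). The median over the 27 was 0.25 and 0.18. Of 7 tested genes of collagen breakdown, the membrane collagenase Mmp14 (2.04) and the uptake receptor Mrc2 (1.94) were higher and the inhibitor Timp2 (-0.54) lower with DEX, and Mmp14 (2.32) and Timp2 (-0.51) were called with DEX + RU-486.

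In batch 1, 9.61% of all genes were called higher and 10.2% lower with DEX, and 7.72% and 8.77% with DEX + RU-486. Of 7 tested collagen receptors, Ddr1 (0.42) and the integrin chain Itga2 (2.07) were higher with DEX and Ddr2 (1.04) with DEX + RU-486. Of 14 tested basement membrane partners, which share the membrane with type IV collagen, the laminin chain Lama1 (0.59 and 0.95) was higher with both treatments and Lamb1 (-0.42) lower with DEX, no more than 1 gene in a direction. Of 5 targets of the glucocorticoid receptor, Per1 (0.82) and Tsc22d3 (0.69) were higher with DEX and Per1 (0.76) with DEX + RU-486. Fkbp5 (-0.04), Sgk1 (0.23) and Zbtb16 (0.95) were not called with DEX. With DEX + RU-486, Fkbp5 (-0.32), Sgk1 (-0.29), Tsc22d3 (0.62) and Zbtb16 (0.44) were not called. In the intact libraries of batch 2, 0 genes of each of these lists were called for either treatment against control, where 0.324% of all genes were higher and 0.237% lower with DEX and 0% and 0.00484% with DEX + RU-486. Between DEX + RU-486 and DEX 0 genes of any list were called in batch 1, and in the intact libraries of batch 2 Lama1 was called higher with DEX + RU-486 (0.67) and 0 genes of the other lists of collagen biology were called, where 0.746% of all genes were higher and 0.775% lower.

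Degraded RNA in batch 2 was described by range, since the 6 libraries of RIN below 3 came from all 3 groups. Col22a1 was at 2.62 to 6.55 CPM in these 6 and 0.309 to 2.12 CPM in the 12 intact libraries, Col6a2 at 1.09 to 3.79 against 0 to 0.635 CPM, and Col6a6 at 0.858 to 2.89 against 0 to 0.45 CPM. Col19a1 was lower, at 0.357 to 1.16 against 1.51 to 4.85 CPM. These 4 genes did not overlap and the other 40 did. Of the 42 collagen genes tested in batch 2, 3 were thus higher and 1 lower, near the 7.74% of all genes that were higher without overlap and below the 10.1% that were lower. The same libraries held more endothelial and mural marker RNA, with 4.91 to 27.6 CPM of endothelial, 8.5 to 21.9 CPM of mural markers, and also more of the neuron markers, at 4980 to 9060 CPM against 1960 to 2240 CPM in the intact libraries. The meningeal sum was 0.936 to 10.1 CPM. RNA integrity and cell makeup cannot be told apart there.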

How the data were processed

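The authors deposited 1 table of counts, the reads assigned to each gene in each of 36 libraries, without normalization. The submitters' processing notes name GRCm38, HISAT2 2.1.0 and Subread 1.5.0-p2. The study also describes an alignment to a composite genome without mismatches, and which alignment the table holds is not given in the sources used here. Labels give poly(A) selection, whereas the study's methods describe a total RNA library. The 5 rows that name no gene (6.22e-06% of counts) were left out, and 55227 identifiers matched GENCODE M21. Genes with a mean above 5 counts were tested by edgeR 4.0.16 under R 4.3.3 (TMM, quasi-likelihood test, batch as covariate, Benjamini-Hochberg over all tested genes, adjusted p under 0.05), and each batch was also fitted alone with its own filter. SE is the log2 fold change divided by the square root of F. Scripts were tested on simulated data. Values were planned for the 3 highest collagens of each class and for those called over both batches (22 genes), and others were named after their values were seen. Members, lists and tests were chosen with earlier results of these data known. Depth was 12.1 to 82.4 M counts, and a 3-count floor covers counting error only. Alternatives were DESeq2 1.42.0, upper-quartile factors, other filters, RIN as covariate, RIN subsets, thinning and leaving out each library.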

Additional observations from a re-analysis of the deposited data

Results flagged for a closer look

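Among 240 groups of 6 libraries, over the 40 collagen genes tested over both batches, 44 had 1 library far from the other 5 by Dixon's criterion. For normally distributed values chance gives this in about 1 group of 20. Groups with few counts need not keep that rate, such as Col8a1 in batch 1 control, where library 3 held 5 counts and the others 0 to 3. Of the 44, 31 were libraries of RIN below 3 in batch 2. Values are in CPM, with the nearest library of the group in parentheses.

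Control library 19 (RIN 2.7) was the highest of its group for Col16a1 at 10.1 (3.18), Col11a1 at 11.7 (4.44), Col12a1 at 5.29 (2.89), Col18a1 at 5.23 (2.17), Col20a1 at 3.98 (2.17), Col9a1 at 2.02 (0.517), Col9a2 at 1.55 (0.419) and Col9a3 at 7.91 (3.1). Control library 20 (RIN 1.8) was the highest for Col4a1 at 63.8 (33.6), Col4a2 at 50.2 (28.2), Col11a2 at 19 (11.2), Col22a1 at 6.0 (2.62), Col26a1 at 7.44 (4.36), Col27a1 at 7.34 (2.96), Col6a3 at 6.2 (2.81), Col7a1 at 5.79 (2.74), Col1a1 at 4.65 (0.892) and Col3a1 at 0.724 (0.214), and the lowest for Col5a2 at 1.34 (3.69). These 2 libraries thus held 19 of the 44.

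DEX library 25 (RIN 2.2) was the highest for Col6a1 at 1.08 (0.535), Col6a2 at 3.17 (1.09), Col8a1 at 1.86 (0.063) and Col8a2 at 2.63 (0.234). DEX library 26 (RIN 1.4) was the highest for Col4a1 at 73.8 (37.5), Col15a1 at 3.35 (1.27) and Col6a3 at 3.9 (2.4). DEX + RU-486 library 31 (RIN 1.5) was the highest for Col27a1 at 8.45 (3.59), Col4a3 at 2.04 (0.769), Col4a4 at 2.82 (0.348) and Col6a5 at 4.66 (1.68), and library 32 (RIN 2.1) for Col9a1 at 1.15 (0.388). Of the intact libraries of batch 2, DEX 27 stood apart for Col20a1 at 2.89 (2.17).

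In batch 1, control library 1 was the highest for Col4a2 at 45.5 (29.1), Col5a3 at 0.551 (0.202) and Col6a1 at 1.65 (0.56), control library 3 for Col8a1 at 0.147 (0.0316), DEX library 7 for Col19a1 at 3.87 (2.27), DEX library 10 for Col6a6 at 0.884 (0.301), DEX library 12, with the lowest RIN of the batch at 3.9, for Col18a1 at 3.79 (1.35) and Col1a1 at 2.53 (0.872), DEX + RU-486 library 13 for Col7a1 at 10.6 (3.39), library 14 for Col6a4 at 0.362 (0.0412), library 15 for Col1a2 at 2.23 (0.825) and library 16 for Col8a1 at 0.599 (0.181).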

How the results depend on the processing

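No paired analysis was possible because the library numbers, 1 to 36, are not shared between groups. For DEX against control over both batches, 0 collagen genes were called higher. DESeq2 called 1 (1.15% of all genes), and libraries of RIN 6 or above gave 6 (8.06%). Batch 1 alone gave 9 (9.61%), and batch 1 at RIN 6 or above gave 8 (9.14%). Leaving out 1 library gave 0 to 5 (0% to 3.61%), with 1 without control 19. Without control 20 the 5 were Col5a3, Col20a1, Col11a2, Col7a1 and Col5a1. For DEX + RU-486 against control, 0 became 3 at RIN 6 or above (3.09%), 9 in batch 1 (7.72%) and 8 in batch 1 at RIN 6 or above (6.29%). The dependence on batch went from 0 to 2 (DESeq2, 0.914% of all genes) and 0 to 1 (leaving out 1 library, 0.0147% to 0.37%) for DEX. For DEX + RU-486 it went to 5 (DESeq2, 0.683%), 2 (RIN as covariate, 0.614%) and 0 to 1 (leaving out 1 library, 0.0147% to 0.147%), the 1 being Col20a1. In batch 1, leaving out 1 library gave 7 to 12 genes higher (5.82% to 11.4% of all genes) and 0 to 1 lower (8.03% to 11.8%) with DEX. With DEX + RU-486 it gave 3 to 10 higher (3.66% to 9.8%), and 5 without control 4, control 6 or DEX + RU-486 18. DESeq2 gave 12 and 11 higher (13% and 11.4%), and 1 (Col26a1) was lower with DEX by DESeq2 (10.9%) and with the Xist class (10.1%). In the intact batch 2 libraries, the 1 gene higher with DEX + RU-486 than with DEX became 2 with DESeq2 (3.39% of all genes), which also called 1 lower (3.62%). The count became 0 without DEX + RU-486 35 and 36, 0 with all libraries of the batch and 0 to 2 leaving out 1 library (0% to 3.41%). For DEX against control 1 was lower by DESeq2 (2.3%) and 0 to 1 leaving out 1 library (0.00483% to 1.79%). Of the differences over both batches with an unadjusted p under 0.05, those that turned were Col2a1 with DEX in batch 2 alone (-0.19), and with DEX + RU-486 Col11a2 (-0.09) and Col5a1 (-0.14) in batch 2 alone and Col5a1 (-0.08) and Col5a3 (-0.03) in its intact libraries. Of the genes called in batch 1, 4 of 9 with DEX and 8 of 9 with DEX + RU-486 were below 0 over all libraries of batch 2, and 1 and 5 in its intact libraries. The cause was not tested. Of 1087 values for 34 differences of single genes (the type IV ratio included), 987 kept direction and side of the threshold, 64 lost and 31 gained the call, and 5 turned. The 21 genes with a mean under 1 CPM are limited by depth.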
